A study of Mus musculus with 4 samples.

Results

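The 9 genes described here, Cbr3, Cbr1, Nqo1, Hmox1, Gclm, Gclc, Txnrd1, Srxn1 and Gsr, are widely used as readouts of the transcription factor NRF2, which the gene Nfe2l2 encodes. They were taken by gene symbol, and 13 of the 45141 probe sets on the array carried one of these symbols, 4 of them for Srxn1, 2 for Gsr and 1 for each other gene, among 17097 named genes in all. The study used J1 cells, a mouse embryonic stem cell line, on 4 Affymetrix arrays, 1 for each of 4 conditions: Tet1/Tet2 KD + PRDM14, Tet1/Tet2 KD, Scramble + PRDM14, and Scramble. KD stands for the combined knockdown of Tet1 and Tet2 by short hairpin RNAs, whose protein products oxidise 5-methylcytosine, and Scramble is its control. PRDM14 belongs to the PR-domain family and acts in the germ line and in pluripotent cells. It was overexpressed in the iP14 derivative of the line, which the labels describe as without or with Dox (doxycycline), and with no arm that had the drug alone the drug and the protein cannot be told apart. All 4 cultures were kept without feeder cells in medium with 10% serum, LIF, 1 mM glutamine and 0.1 mM mercaptoethanol, itself a thiol reductant, and 150 ng of RNA was labelled for each array. The question stated for the series concerns the part of TET1 and TET2 in gene regulation by PRDM14.

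NRF2 is normally bound by KEAP1, an adaptor of a CUL3 ubiquitin ligase, and degraded. Oxidants and electrophiles modify cysteines of KEAP1, NRF2 then accumulates, pairs with small MAF proteins and binds antioxidant response elements near its target genes. The targets reduce quinones and carbonyls (Nqo1, Cbr1, Cbr3), break down haem (Hmox1), make glutathione (Gclc, Gclm), return it to its reduced form (Gsr), and keep thioredoxin and peroxiredoxins active (Txnrd1, Srxn1). NRF2 itself is controlled largely at the protein level, which an RNA array does not measure.

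The values are log2 probe set signals as the authors deposited them. With 1 array per condition there is no spread within a condition, and no difference could be set against one. A call, higher or lower, needed a difference of at least 2-fold between 2 arrays, which is 1 on the log2 scale, with the higher one at or above 5.40, the median of all named probe set values. Such a call is a rule of size and not a test. The pooled SD of a difference between probe sets of 1 gene, 0.15 for PRDM14 in knockdown cells, 0.22 for PRDM14 in scramble cells, 0.16 for the knockdown with PRDM14 and 0.21 for the knockdown without it, serves as a technical yardstick that covers neither cultures nor arrays. Bulk RNA does not separate a change per cell from a change in the mix of cells.

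In the mouse reference GRCm38.p6 (RefSeq), Cbr1 lies at chr16:93607837-93610349 and Cbr3 at chr16:93683219-93690991, with 72869 bases between them. Nqo1 lies at chr8:107388225-107403205, Hmox1 at chr8:75093618-75100593 and Gsr at chr8:33653238-33698162. Gclm (chr3:122245487-122267215), Gclc (chr9:77754535-77794489), Txnrd1 (chr10:82833951-82897724) and Srxn1 (chr2:152105524-152111376) each lie on another chromosome.

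Promoter sequences from RefSeq (GRCm38.p6) were matched for 6 of the 9 genes, with 3 start sites for Txnrd1, and Hmox1, Gclc and Gsr were not matched. The core of the antioxidant response element was searched in the 250 bases before each start, as TGACNNNGC or TGAGNNNGC, on both strands. A match was found once for Gclm, once for 1 of the Txnrd1 starts and 2 times for Srxn1, and 23% of all 32851 promoters held at least 1. The windows below show these matches in capitals with 15 bases on either side, read 5′ to 3′ on the strand of the gene, which is the plus strand for all 3 genes. In 3 of the 4 windows the match runs on the opposite strand and so reads as GC first, and the second Srxn1 window holds it as written.
Gclm, chr3:122245408-122245446: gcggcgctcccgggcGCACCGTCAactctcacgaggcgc
Txnrd1, chr10:82859099-82859137: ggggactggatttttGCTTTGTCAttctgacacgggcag
Srxn1, chr2:152105351-152105389: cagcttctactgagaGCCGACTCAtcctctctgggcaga
Srxn1, chr2:152105464-152105502: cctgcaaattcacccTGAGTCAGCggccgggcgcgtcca

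The members with a 2-fold difference, Cbr3 and Nqo1, held no match in the same 250 bases, which says only that these letters are not in this window. Their windows are shown whole because the study concerns a pathway that acts on methylated CpG sites, with each CpG in capitals. Cbr3 had 14 CpG, more than 70.6% of all promoter windows had, and Nqo1 had 5, where the median over all windows was 6. Methylation was not measured in these files.
Cbr3, chr16:93682969-93683218, plus strand: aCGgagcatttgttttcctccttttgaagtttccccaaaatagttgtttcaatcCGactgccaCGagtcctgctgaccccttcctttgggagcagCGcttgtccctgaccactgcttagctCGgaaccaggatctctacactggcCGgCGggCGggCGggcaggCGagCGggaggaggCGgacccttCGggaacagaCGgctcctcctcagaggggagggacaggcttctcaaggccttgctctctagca
Nqo1, chr8:107403206-107403455, minus strand: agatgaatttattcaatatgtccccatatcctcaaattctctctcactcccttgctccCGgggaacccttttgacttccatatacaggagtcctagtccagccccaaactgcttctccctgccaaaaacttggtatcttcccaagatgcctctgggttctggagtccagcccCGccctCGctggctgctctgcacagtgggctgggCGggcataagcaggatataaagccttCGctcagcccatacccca

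Some facts of the arrays bear on what follows. All 7 measured markers of pluripotent cells, among them Pou5f1, Nanog and Sox2, reached 5.40 on all 4 arrays, while 7 of 8 fibroblast and feeder markers lay below it on all 4, Dcn being the exception at 5.47 to 5.60. The median signal of the fibroblast markers was 3.996, 4.06, 4.08 and 4.05 on the Tet1/Tet2 KD + PRDM14, Tet1/Tet2 KD, Scramble + PRDM14 and Scramble arrays. In that order the medians were 5.49, 5.35, 5.37 and 5.50 for trophectoderm markers (3 of 6 below 5.40 on all arrays), 4.98, 4.97, 5.33 and 5.05 for primitive endoderm (3 of 6) and 4.64, 4.54, 4.74 and 4.56 for neuroectoderm (3 of 5). Tet2 signals were 8.15, 7.50, 9.33 and 8.46, and a second probe set gave 6.53, 6.34, 7.11 and 6.90, lower on both knockdown arrays. Prdm14 signals were 4.61, 4.35, 4.83 and 4.53, all below 5.40, so the PRDM14 labels were not checked by that gene and every PRDM14 direction below rests on the labels. Tet1 was not analysed here. The array controls for Actb and Gapdh averaged 0.03 higher with PRDM14 in knockdown cells, 0.29 higher with PRDM14 in scramble cells, 0.05 lower in knockdown than scramble cells with PRDM14 and 0.20 higher without it, and all 6 of these probe sets were lowest on the Scramble array. Their 3′ minus 5′ log2 signal was 0.39, 0.40, 0.35 and 0.46 for Actb and −0.12, −0.18, −0.15 and −0.07 for Gapdh.

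Cbr3, an NADPH-dependent carbonyl reductase, differed most of the 9 genes. Its log2 signal was 8.91 on the Tet1/Tet2 KD + PRDM14 array and 6.89 on the Tet1/Tet2 KD array, a difference of 2.02 or 4.06-fold. It was 8.03 on the Scramble + PRDM14 array and 6.32 on the Scramble array, a difference of 1.71 or 3.27-fold. Both arrays labelled with PRDM14 thus lay above both arrays without it, and the gene was called higher in each background, from 4 different arrays. The difference ranked 5th highest of 10311 genes in knockdown cells and 24th highest of 10366 in scramble cells. With each array set to equal Actb and Gapdh controls, a scaling chosen after the data were seen, the differences were 1.99 and 1.42.

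**Figure D1:**
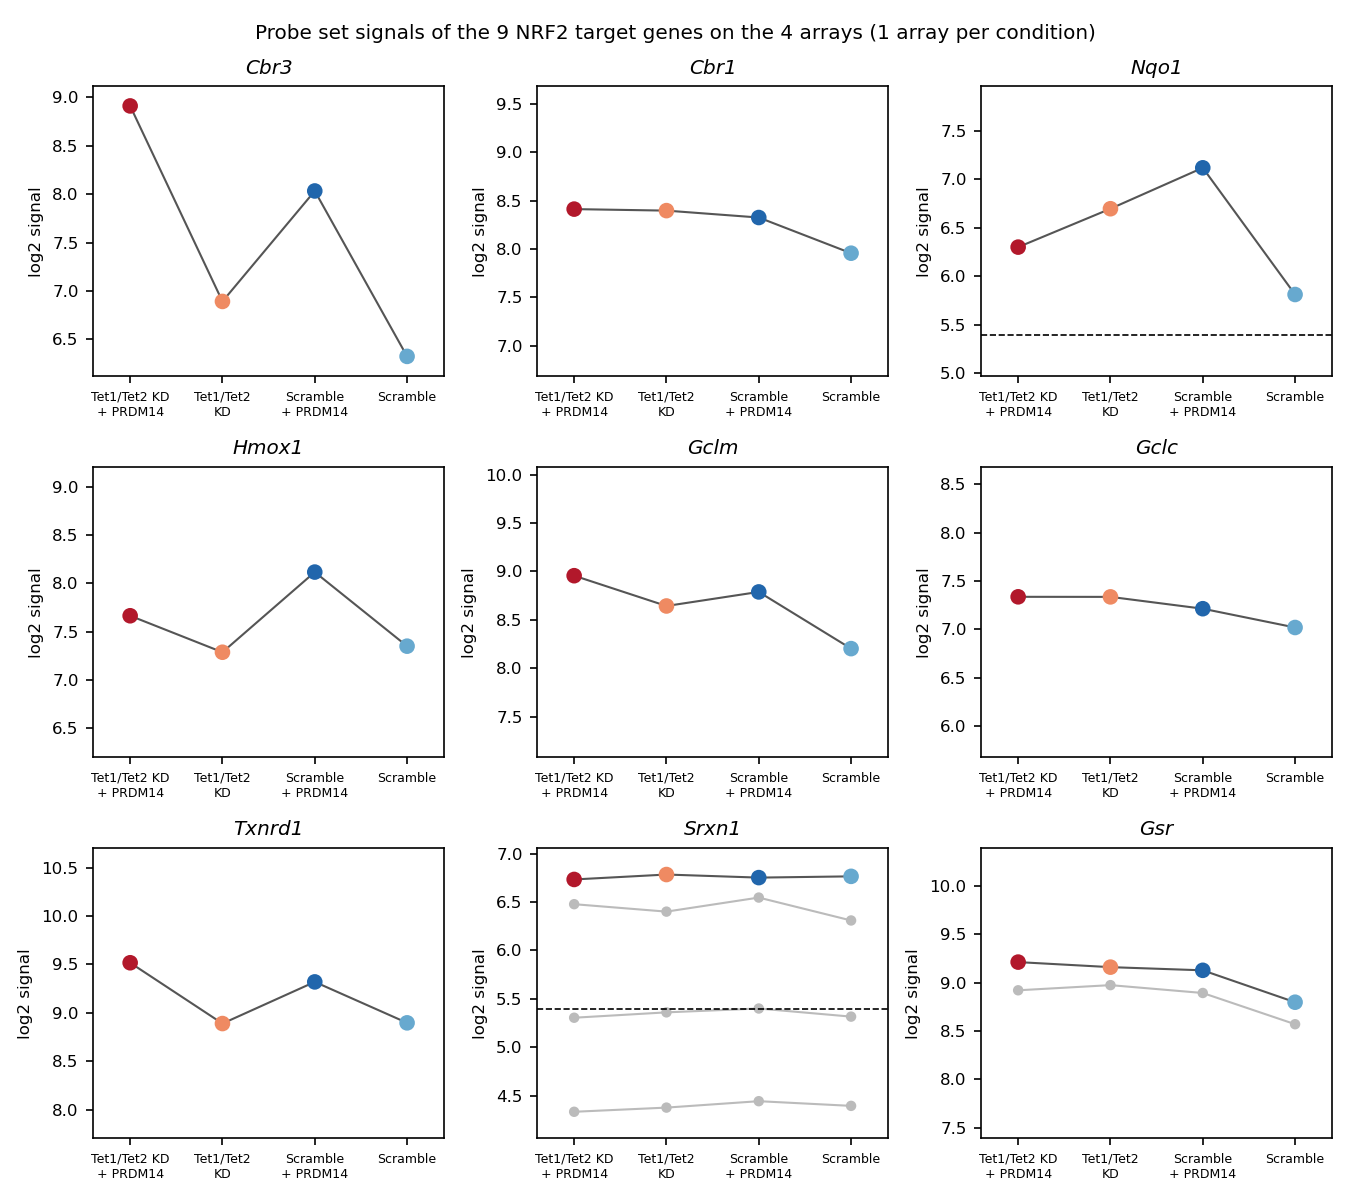
Log2 probe set signal of each of the 9 genes on the 4 arrays, in panels of equal height (3 log2 units), with the brightest probe set of a gene in colour, others in grey, and the filter of 5.40 dashed where it falls in the panel. Cbr3 is highest on the 2 arrays labelled with PRDM14, at 8.91 and 8.03, Nqo1 is highest on the Scramble + PRDM14 array at 7.12, and Srxn1 stays within 0.05 on its brightest probe set.

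Cbr3 was also higher in knockdown than in scramble cells, below the 2-fold rule. The knockdown difference was 0.88 with PRDM14, where Cbr3 ranked 92nd of 10322 genes, and 0.57 without it, where it ranked 330th of 10351, or 0.93 and 0.36 with equal Actb and Gapdh controls. The PRDM14 difference in knockdown cells exceeded that in scramble cells by 0.31, against a pooled SD between probe sets of 0.25 for that quantity, and by 0.57 with equal controls. The 4 signals therefore followed the order Tet1/Tet2 KD + PRDM14, Scramble + PRDM14, Tet1/Tet2 KD, Scramble. A single probe set represents Cbr3, so no second one could be set beside it. The trophectoderm marker Krt18 was also highest on the Tet1/Tet2 KD + PRDM14 array, at 7.74, against 6.59, 6.40 and 6.46 on the Tet1/Tet2 KD, Scramble + PRDM14 and Scramble arrays, while Cdx2, Elf5 and Krt7 were below the filter on all. The other trophectoderm markers past the filter did not share this, Hand1 reading 6.92, 7.01, 6.87 and 6.96 and Tfap2a 5.70, 5.56, 5.67 and 5.87 on the Tet1/Tet2 KD + PRDM14, Tet1/Tet2 KD, Scramble + PRDM14 and Scramble arrays. The part of Krt18 in the Cbr3 difference was not tested.

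In all, 10 genes were called higher with PRDM14 in both backgrounds, which is 27% of the 37 called higher in knockdown cells and 8.85% of the 113 called higher in scramble cells. Those 37 were 0.359% of 10311 genes past the filter, and those 113 were 1.09% of 10366. Cbr3 was the one member among the 10, and the others were Dnmt3b, Efnb2, Hmgxb4, Mapkapk3, Pou3f1, Rian, Sox11, Trh and Trim2. With equal Actb and Gapdh controls 8 of the 10 were called in both, Cbr3 included, without Mapkapk3 and Pou3f1. By Euclidean distance between the 4 centred log2 signals, the genes nearest to Cbr3 were the POU factor Pou3f1 (distance 0.40), the de novo DNA methyltransferase Dnmt3b (0.64) and the choline transporter-like gene Slc44a2 (0.85). On the probe set that stood for Pou3f1, the arrays without PRDM14 lay below the filter, at 5.33 for Tet1/Tet2 KD and 5.09 for Scramble. Its distance to Cbr3 and both its PRDM14 differences use these low signals. The PRDM14 differences of Pou3f1 were 2.14 in knockdown and 1.15 in scramble cells, but a second probe set gave 0.51 and −0.04. Those of Dnmt3b were 1.78 and 1.32, and its second probe set gave 1.84 and 1.36. Those of Slc44a2 were 1.22 and 0.82, and its other probe sets did not reach the filter. A distance over 4 points, each 1 array, is a description of these arrays only.

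Cbr1, the neighbouring carbonyl reductase gene on the same chromosome, did not share this pattern. Its log2 signal was 8.41 on the Tet1/Tet2 KD + PRDM14 array, 8.40 on the Tet1/Tet2 KD array, 8.33 on the Scramble + PRDM14 array and 7.96 on the Scramble array. The first 3 lay within 0.09 of each other and the Scramble array was the lowest. The PRDM14 difference was 0.02 in knockdown and 0.37 in scramble cells, or −0.02 and 0.08 with equal Actb and Gapdh controls.

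Nqo1, which encodes a quinone reductase that carries out 2-electron reductions, was the other member called. Its log2 signal was 6.30 on the Tet1/Tet2 KD + PRDM14 array and 6.70 on the Tet1/Tet2 KD array, a difference of −0.40. It was 7.12 on the Scramble + PRDM14 array and 5.81 on the Scramble array, a difference of 1.31 or 2.48-fold. The gene was thus higher with PRDM14 in scramble cells, where it ranked 61st highest of 10366 genes, and lower with PRDM14 in knockdown cells, where it ranked 332nd lowest of 10311. The knockdown difference had the opposite sign in the 2 states as well, at −0.82 with PRDM14 and 0.89 without it, neither of them 2-fold.

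The difference between these differences, −1.71, made Nqo1 the member called for dependence on the knockdown, 26th lowest of 10519 genes. With equal Actb and Gapdh controls it was −1.45, and the PRDM14 difference in scramble cells was 1.02, just past 2-fold. The Scramble array was the lowest for Nqo1, and the call in scramble cells rests on it. The call for dependence on the knockdown also uses that array. The difference of −0.82 between the Tet1/Tet2 KD + PRDM14 and Scramble + PRDM14 arrays does not use that array. The genes nearest to Nqo1 in their 4 centred signals were the cyclin Ccnd2 (distance 0.16), the transcriptional coactivator Wwtr1 (0.22) and Prr13 (0.23). Their PRDM14 differences were −0.58 and 1.31, −0.23 and 1.12, and −0.09 and 1.41 in knockdown and scramble cells. Of the 6 Ccnd2 probe sets, the 3 others that reached the filter on any array gave −1.04 and 2.43, −0.75 and 1.63, and −0.30 and 1.09, and those below it on all arrays gave −0.15 and 0.25, and −0.16 and 0.13. The other Wwtr1 probe sets did not reach the filter, and Prr13 had a single one. The neuroectoderm marker Tubb3 was likewise lowest on the Scramble array, at 6.64, 7.002, 6.81 and 5.94 on the Tet1/Tet2 KD + PRDM14, Tet1/Tet2 KD, Scramble + PRDM14 and Scramble arrays, while Sox1, Nes and Map2 were below the filter on all. Pax6, the other neuroectoderm marker that reached the filter, was lowest on the Tet1/Tet2 KD array, at 5.69, 5.36, 7.12 and 6.26 in that order. Among the 7 pluripotency markers, Klf4 and Nanog also differed with PRDM14 in opposite directions, by −0.61 and −0.39 in knockdown cells and 0.44 and 0.52 in scramble cells. The others did so by less or not at all. In knockdown and scramble cells Esrrb differed by −0.49 and −0.51, Dppa5a by −0.07 and −0.09, and Sox2 by 0.14 and −0.03. Pou5f1 differed by −0.01 and 0.21 and Zfp42 by −0.06 and 0.05. Klf4 was called lower for the knockdown with PRDM14, at −1.21, and for dependence on the knockdown, at −1.06, or −0.80 with equal controls, under 2-fold. The part of these markers in the Nqo1 values was not tested. As for Cbr3, Nqo1 was read by 1 probe set.

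Hmox1, which encodes the inducible haem oxygenase, was higher with PRDM14 in each background and called in neither. Its log2 signal was 7.66 on the Tet1/Tet2 KD + PRDM14 array, 7.29 on the Tet1/Tet2 KD array, 8.12 on the Scramble + PRDM14 array and 7.35 on the Scramble array. The arrays without PRDM14 differed by 0.06 and both lay below the 2 with it. The PRDM14 difference was 0.38 in knockdown and 0.77 in scramble cells, or 0.34 and 0.48 with equal Actb and Gapdh controls. With PRDM14 the knockdown array was 0.45 lower than the scramble array, 356th lowest of 10322 genes.

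The subunits of glutamate-cysteine ligase, which makes the rate-limiting step of glutathione synthesis, are the catalytic Gclc and the modifier Gclm. Gclm had log2 signals of 8.96 on the Tet1/Tet2 KD + PRDM14 array, 8.64 on the Tet1/Tet2 KD array, 8.79 on the Scramble + PRDM14 array and 8.20 on the Scramble array. Its PRDM14 difference was 0.31 in knockdown and 0.59 in scramble cells, both under 2-fold, or 0.28 and 0.30 with equal Actb and Gapdh controls. Gclc had 7.34, 7.34, 7.21 and 7.02 in the same order, and its PRDM14 difference was 0.0006 in knockdown and 0.19 in scramble cells, where equal Actb and Gapdh controls turned both below 0, to −0.03 and −0.10. Both genes were lowest on the Scramble array, and Gclc had the same signal to 2 decimals on both knockdown arrays.

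Gsr, glutathione reductase, differed little among 3 of the 4 arrays. Its brighter probe set read 9.21 on the Tet1/Tet2 KD + PRDM14 array, 9.16 on the Tet1/Tet2 KD array, 9.13 on the Scramble + PRDM14 array and 8.80 on the Scramble array. The second read 8.92, 8.97, 8.89 and 8.57 in that order. On both the Scramble array was the lowest, by at least 0.32, and the other 3 lay within 0.09. The PRDM14 difference in scramble cells was 0.33 and 0.32 on the 2 probe sets, and 0.04 on the brighter with equal Actb and Gapdh controls.

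Txnrd1, the cytosolic thioredoxin reductase, followed the PRDM14 label in both backgrounds at under 2-fold. It read 9.52 on the Tet1/Tet2 KD + PRDM14 array, 8.89 on the Tet1/Tet2 KD array, 9.32 on the Scramble + PRDM14 array and 8.90 on the Scramble array. The arrays without PRDM14 differed by 0.007. The PRDM14 difference was 0.63 in knockdown cells, 132nd highest of 10311 genes, and 0.42 in scramble cells, 806th of 10366, or 0.60 and 0.13 with equal Actb and Gapdh controls. Besides Cbr3 it was the only member whose PRDM14 difference was larger in knockdown than in scramble cells, by 0.21, against a pooled SD of 0.25. With equal controls the excess of Txnrd1 was 0.46, and Gclc and Srxn1 also had a larger difference in knockdown cells, by 0.06 and 0.22.

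Srxn1, sulfiredoxin, which restores overoxidised peroxiredoxins, had the narrowest range of the 9 genes. Its brightest probe set read 6.73 on the Tet1/Tet2 KD + PRDM14 array, 6.78 on the Tet1/Tet2 KD array, 6.75 on the Scramble + PRDM14 array and 6.77 on the Scramble array. Over all 4 probe sets the pairwise differences between conditions ran from −0.11 to 0.24. With equal Actb and Gapdh controls the brightest one differed by −0.08 with PRDM14 in knockdown cells and −0.30 in scramble cells, and its knockdown differences turned sign, to 0.03 with PRDM14 and −0.19 without it. Of the other probe sets, 1 reached the filter on all 4 arrays, 1 on a single array and 1 on none.

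**Figure D2:**
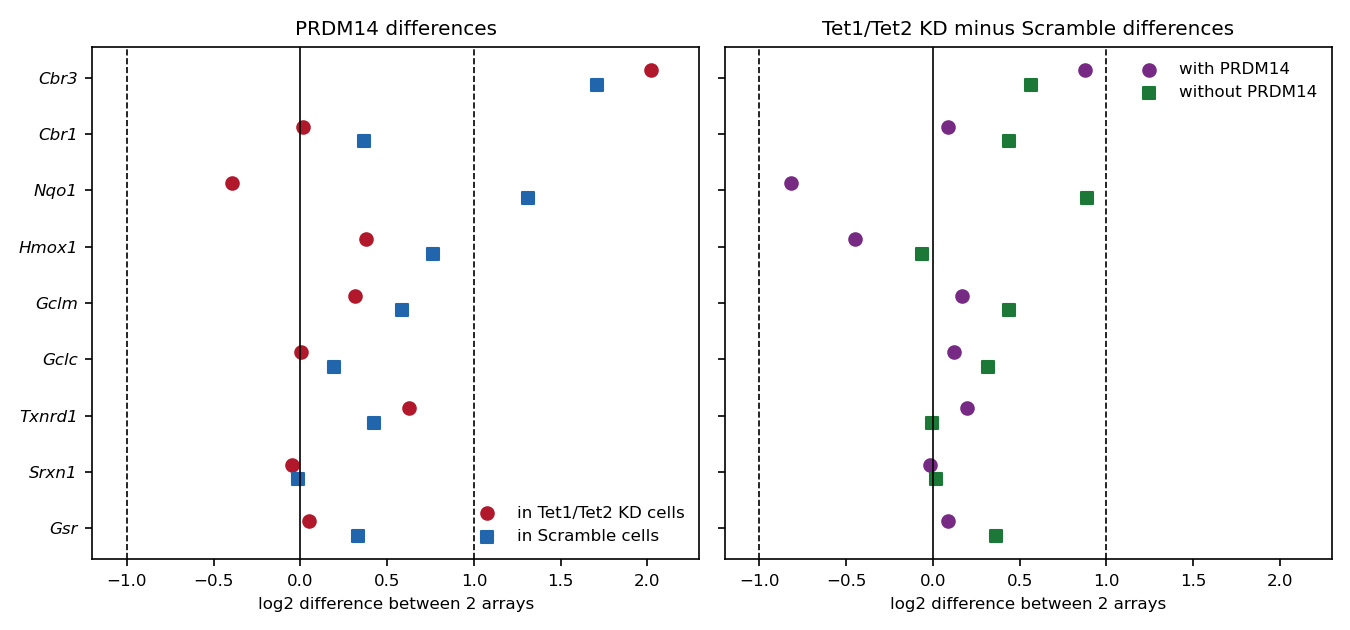
Log2 difference of each of the 9 genes between 2 arrays, with PRDM14 differences on the left (circles in Tet1/Tet2 KD cells, squares in Scramble cells) and knockdown differences on the right (circles with PRDM14, squares without); dashed lines mark 2-fold. Cbr3 is past 2-fold in both PRDM14 comparisons at 2.02 and 1.71, Nqo1 in scramble cells at 1.31, and no gene is past 2-fold in a knockdown comparison.

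As a group, the members were counted by comparison and set beside all genes. They were chosen with earlier results of these data known, so the counts and medians here and below describe a chosen set. An excess over all genes is therefore not independent evidence about the pathway. All 9 reached the filter in every comparison, on all 4 arrays. For PRDM14 in knockdown cells 1 of 9 was called higher and 0 lower, where 0.359% of all genes were called higher and 0.272% lower. The member median was 0.05 against −0.001 over all genes, and 7 members lay above 0, or 5 with equal Actb and Gapdh controls, where Cbr1 and Gclc turned. For PRDM14 in scramble cells 2 of 9 were called higher and 0 lower, where 1.09% of all genes were called higher and 1.00% lower. The member median was 0.42 against 0.002 over all genes, and 8 members lay above 0, or 7 with equal controls, where Gclc turned. That scaling moved the median of all genes to −0.29 and the member median to 0.13, still 0.43 above it. Over all genes it gave 62 calls higher and 260 lower for PRDM14 in scramble cells, against 113 higher and 104 lower as deposited. At a 1.5-fold threshold 2 of 9 members were called in knockdown cells, where 2.81% of all genes were called in either direction, and 4 of 9 in scramble cells, where 8.19% were. At 3-fold 1 was called in scramble cells, where 0.502% of all genes were.

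No member was called in either knockdown comparison. With PRDM14, where 0.630% of all genes were called higher and 0.475% lower, the members ran from −0.82 for Nqo1 to 0.88 for Cbr3 with a median of 0.09. Without PRDM14, where 0.618% were called higher and 0.444% lower, they ran from −0.06 for Hmox1 to 0.89 for Nqo1 with a median of 0.36, or 0.16 with equal controls, where the median of all genes was −0.20. The dependence on the knockdown, for which 0.979% of all genes were called higher and 1.29% lower, had 1 member called lower, Nqo1, and a member median of −0.27. With equal controls that median was −0.015, where the median of all genes was 0.26. At 1.5-fold 2 members were called for the knockdown with PRDM14, where 4.34% of all genes were called in either direction, and 1 without PRDM14, where 5.09% were. With equal controls the calls over all genes were 26 higher and 93 lower for the knockdown without PRDM14, and 271 higher and 74 lower for dependence, against 64 and 46, and 103 and 136, as deposited. The comparisons share arrays and are not separate counts.

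On the values as deposited, the Scramble array was the lowest of the 4 for 6 members, Cbr3, Cbr1, Nqo1, Gclm, Gclc and Gsr, where it was the lowest for 31.1% of the 10519 genes past the filter. It was the highest for none of the 9, against 29.7% of all genes. The Tet1/Tet2 KD + PRDM14 array was the highest for 6 members, against 22% of all genes. The PRDM14 comparison in scramble cells and the knockdown comparison without PRDM14 both subtract the Scramble array, on which the Actb and Gapdh controls were also lowest. The part of that array's offset in the members' values was not tested. Without it, in the comparison of PRDM14 in knockdown cells, Cbr3, Txnrd1, Hmox1 and Gclm lay at 2.02, 0.63, 0.38 and 0.31 and the other 5 at or below 0.05.

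**Figure D3:**
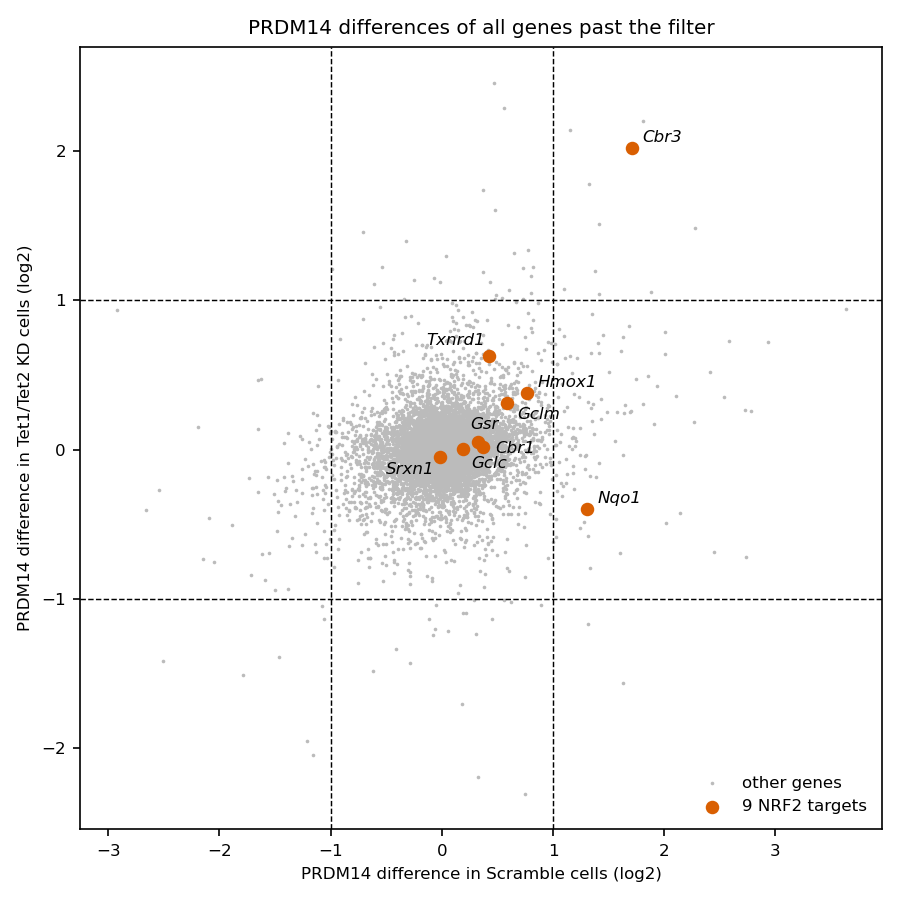
PRDM14 difference in Scramble cells (horizontal, log2) against that in Tet1/Tet2 KD cells (vertical, log2) for the 10519 genes past the filter on at least 1 array, in grey, with the 9 NRF2 targets in orange and dashed lines at 2-fold. Cbr3 stands among the few genes past 2-fold on both axes, Nqo1 is past it on the horizontal axis only, and the other 7 lie within 2-fold on both.

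The additive model, fitted with limma over all 10519 genes, averages each factor over the level of the other and takes any dependence as noise, with 1 residual degree of freedom per gene. Because the members were chosen with earlier results of these same arrays known, their number among the genes below is a description and not independent support. No gene passed a Benjamini-Hochberg adjusted p of 0.05 for either factor. For PRDM14 638 genes (6.07%) had an unadjusted p under 0.05, and 4 of the 9 members were among them, Cbr3, Txnrd1, Hmox1 and Gclm. Cbr3 had an average PRDM14 effect of 1.86 ± 0.13 (SE), an unadjusted limma p of 0.000473, the 6th smallest, and an adjusted p of 0.782. The average PRDM14 effect of Txnrd1 was 0.53 ± 0.13, of Hmox1 0.57 ± 0.15 and of Gclm 0.45 ± 0.14 (SE), each with a limma adjusted p of 0.782. That of Nqo1 was 0.46 ± 0.48, with the larger error of a gene whose difference has opposite signs in the 2 backgrounds. For the knockdown 604 genes (5.74%) had an unadjusted p under 0.05, of which Cbr3 was the member, with 0.72 ± 0.13 and a limma adjusted p of 0.802.

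The other genes of the pathway were counted from lists of regulators, further NRF2 targets, other antioxidant enzymes and other carbonyl reductases. Among 11 measured regulators none was called in any comparison, where 0.272% to 1.29% of all genes were called in each direction. Nfe2l2, the gene for NRF2, read 8.77 on the Tet1/Tet2 KD + PRDM14 array, 8.04 on the Tet1/Tet2 KD array, 8.53 on the Scramble + PRDM14 array and 8.46 on the Scramble array. It was thus lowest on the Tet1/Tet2 KD array, and its PRDM14 difference was 0.73 in knockdown and 0.07 in scramble cells, or 0.70 and −0.22 with equal Actb and Gapdh controls. The NRF2 competitor Bach1 differed by −0.08 and −0.20, and Cul3 by −0.16 and −0.08. Among the small MAF partners Mafg differed by 0.18 and −0.42, Mafk by 0.19 and −0.03, and Maff by −0.04 and −0.17. Keap1 and Sqstm1 were not analysed here.

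Of 28 further NRF2 targets on the array, 23 reached the filter, among them Nfe2l2, which is also counted among the regulators. With PRDM14 in knockdown cells none was called, where 0.359% of all genes were called higher and 0.272% lower. Of the 23, 13 lay above 0 and the median was 0.12. The largest differences there were those of Ptgr1, an oxidoreductase of reactive aldehydes and prostaglandins, at 0.86 and of Nfe2l2 itself. With PRDM14 in scramble cells 1 was called higher, Ugdh, which makes UDP-glucuronic acid for conjugation, at 1.08, where 1.09% of all genes were called higher, 18 lay above 0 and the median was 0.25. With equal Actb and Gapdh controls Ugdh was at 0.79 and not called, Gstp1 at −1.16 and Abcc4 at −1.05 were called lower, and 10 of 24 lay above 0 with a median of −0.04. At that scaling 62 of 10838 genes were called higher and 260 lower, and the median of all genes was −0.29, below that of the list.

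Ugdh was at −0.31 with PRDM14 in knockdown cells and was also called lower for dependence on the knockdown, at −1.39, or −1.14 with equal controls, in the same direction as Nqo1. Its 4 signals were 7.66, 7.97, 8.48 and 7.39 on the Tet1/Tet2 KD + PRDM14, Tet1/Tet2 KD, Scramble + PRDM14 and Scramble arrays. Abcc4, an exporter of conjugates and cyclic nucleotides, was called higher for dependence at 1.06, or 1.32 with equal controls. Its PRDM14 differences were 0.30 in knockdown and −0.76 in scramble cells. Over all genes 0.979% were called higher and 1.29% lower for dependence as deposited. With equal controls Abcc1 was also called higher for dependence, at 1.09, against 0.83 as deposited. At that scaling 271 of 10894 genes were called higher and 74 lower. Gstp1, a glutathione transferase, was called higher in the knockdown with PRDM14, at 1.19 (10.03 against 8.84), where 0.630% of all genes were called higher. It was the one call of this list in a knockdown comparison. Slc7a11, the cystine carrier that feeds glutathione synthesis, read 3.78 to 3.96 over the 4 arrays, under the filter.

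Of 20 other antioxidant enzymes on the array, 19 reached the filter in the PRDM14 comparisons. In knockdown cells none was called, where 0.359% of all genes were called higher and 0.272% lower, and the median was −0.02. In scramble cells Gpx1, a glutathione peroxidase, was called higher at 1.21 and Glrx2, a mitochondrial glutaredoxin, lower at −1.05, where 1.09% of all genes were called higher and 1.00% lower, and the median was 0.08. With equal Actb and Gapdh controls Gpx1 was at 0.92 and no longer called, Glrx2 was at −1.34 and the median was −0.21. The median of all genes at that scaling was −0.29, and 260 of 10838 genes were called lower. Gpx1 read 11.40 and 11.34 on the Tet1/Tet2 KD + PRDM14 and Tet1/Tet2 KD arrays, and 11.75 and 10.54 on the Scramble + PRDM14 and Scramble arrays, which gave a call of −1.15 for dependence, or −0.89 with equal controls, under 2-fold. Over all genes 1.29% were called lower for dependence as deposited. The other Glrx2 probe sets gave −1.27 and −0.999 in scramble cells. For dependence Glrx2 was at 0.97, and was called higher with equal controls, at 1.23, as were 271 of 10894 genes in all. Among 5 other carbonyl reductases past the filter none was called in any comparison, where 0.272% to 1.29% of all genes were called in each direction. Cbr4, a mitochondrial member, lay at −0.41 and −0.84 in the PRDM14 comparisons in knockdown and scramble cells. With equal controls Cbr4 was called lower in scramble cells, at −1.13, as were 260 of 10838 genes in all.

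**Figure D4:**
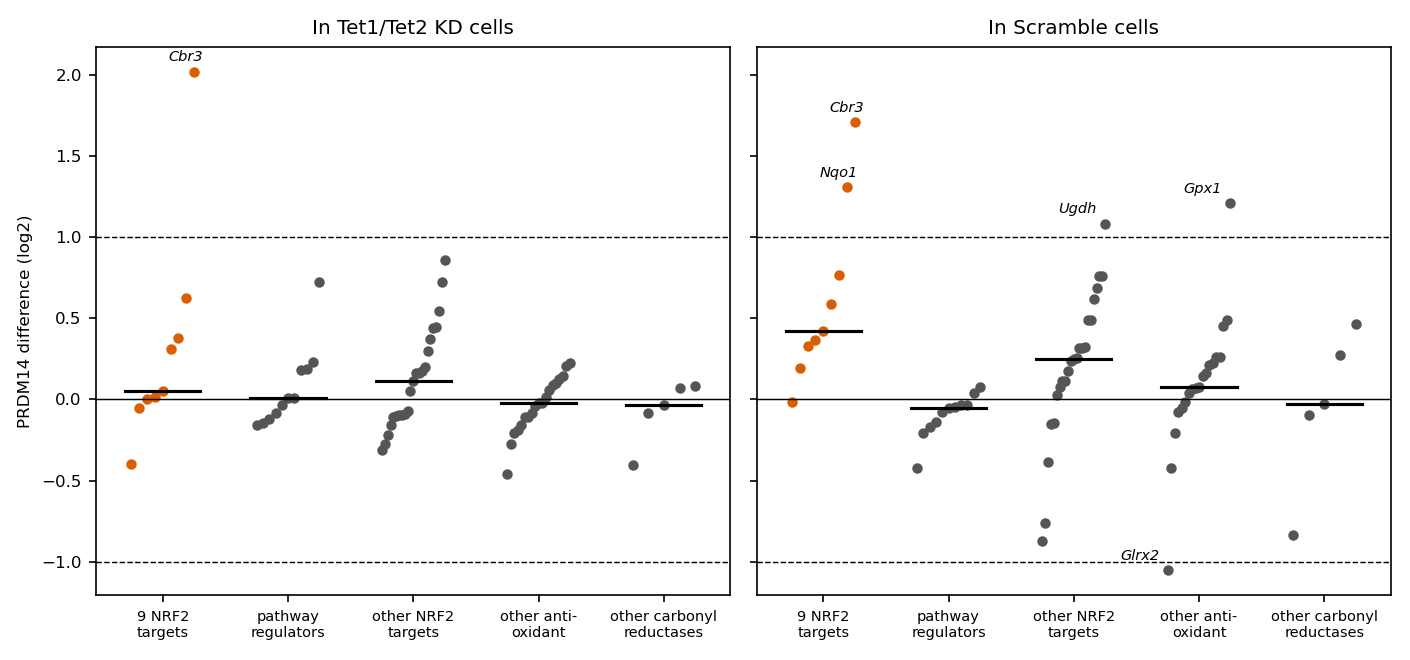
PRDM14 difference (log2) of each gene past the filter in Tet1/Tet2 KD cells (left) and Scramble cells (right), by list, with bars at list medians and dashed lines at 2-fold. Nfe2l2 appears both among the regulators and among the other NRF2 targets. In knockdown cells Cbr3 is the one gene past 2-fold, and in scramble cells Cbr3, Nqo1, Ugdh and Gpx1 are higher and Glrx2 is lower, where Ugdh and Gpx1 fall under 2-fold with equal Actb and Gapdh controls.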

How the data were processed

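The values the authors deposited are taken as log2 signals, a base inferred from their range, 2.78 to 13.2. Array medians were 5.09 to 5.11 and the other quartiles close but not equal, from which normalization between arrays was inferred. The submitters' processing notes name Affymetrix Expression Console. The summary method, background correction and genome build were not given in sources used here, and whether low signals are compressed could not be assessed. Groups follow the sample titles, per the labels.

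GEO's platform annotation gave a single gene to 28898 probe sets, more than 1 to 551 and no gene to 15588, besides 104 controls. Entrez identifiers of 28689 matched the RefSeq table, and 0 symbols changed. Where several probe sets shared a gene, the brightest on average stood for it. Average effects came from limma 3.58.1 in R 4.3.3 (eBayes with trend), with Benjamini-Hochberg adjustment over all genes. The fit was also run on simulated arrays with equal noise for every gene, which does not check it where noise differs between genes. Members and lists were chosen with earlier results of these data known. Named genes were the 9 members, called list members, Nfe2l2, and the 3 nearest genes of the members with a range of at least 1 (Cbr3 and Nqo1). Genes called in both backgrounds, Ptgr1, Bach1, Cul3, Mafg, Mafk, Maff, Slc7a11, Abcc1, Cbr4 and the markers named singly were chosen after their values were seen.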

Additional observations from a re-analysis of the deposited data

Results flagged for a closer look

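Nqo1 differed with PRDM14 in opposite directions in the 2 backgrounds, by −0.40 in knockdown cells and 1.31 in scramble cells, each more than the pooled SD between probe sets. Its knockdown difference was likewise −0.82 with PRDM14 and 0.89 without it. With 1 array per condition neither contrast between backgrounds was tested, and both describe the same 4 signals. No group had 4 arrays, so no array was tested as an outlier within a group.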

How the results depend on the processing

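With a 1.5-fold threshold 2 members were called for PRDM14 in knockdown cells (Cbr3 and Txnrd1, where 2.81% of all genes were called). In scramble cells 4 were called for PRDM14 (Cbr3, Nqo1, Hmox1 and Gclm, where 8.19% of all genes were called). For the knockdown with PRDM14 2 were called at 1.5-fold, Cbr3 higher and Nqo1 lower, where 4.34% of all genes were called. For the knockdown without PRDM14 1 was called, Nqo1, higher, where 5.09% of all genes were. With a 3-fold threshold 1 was called for PRDM14 in scramble cells, Cbr3, where 0.502% of all genes were. With arrays centred on Actb and Gapdh controls, added after seeing the data, the member median was 0.13 for PRDM14 in scramble cells and −0.015 for the dependence on the knockdown, since by construction that scaling lowers each difference from the Scramble array. The other 59 values of counts and medians, under these settings, no filter, averaged probe sets, values raised to the filter, arrays centred on their medians, and limma without trend, stayed within 1.5 times the count or within the pooled SD between probe sets. No call of a single member changed sign or fell below 2-fold under averaged probe sets, raised values or either centring. No pairing of replicates was possible because each condition has 1 array and the labels give no replicate numbers, and no replicate could be left out. The additive limma model takes the background as a block and gives 1 PRDM14 effect per gene, averaged over the 2 backgrounds. Without the filter, 995 of 17097 genes had an unadjusted limma p under 0.05 for PRDM14 and 964 for the knockdown, against 638 and 604 of 10519 with it, since more genes were tested. With 1 array for each condition, precision is limited by the number of arrays.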
